A study of Mus musculus with 12 samples.

Results

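Genes of endoplasmic reticulum (ER) stress and protein folding were examined in liver RNA of wild-type mice (WT) and of mice lacking Bmal1 in the liver (KO). The list held 34 genes chosen by symbol. All 34 were found among the 22322 gene symbols of the tables, and all 34 were among the 10799 genes tested. The transcript row with the highest mean stood for each gene. They comprise 11 chaperones and co-chaperones, 3 disulfide isomerases, 6 sensors and transcription factors, 5 targets of the translational arm of the stress response, 7 genes of ER-associated degradation and 2 subunits of the translocon. BMAL1, encoded by Arntl, pairs with CLOCK to drive the circadian clock. The 12 livers came from C57BL/6 mice at 8 weeks of age, with 3 WT and 3 KO animals taken at circadian time (CT) 0 and 3 of each at CT12, in hours from the time the lights would have come on, and all mice were moved to darkness 2 days before. WT mice carried the floxed Bmal1 allele on both chromosomes. KO mice carried the same allele together with a CRE recombinase under a liver-specific promoter. No recombinase is described for the WT mice, so an effect of the recombinase and an effect of losing Bmal1 cannot be told apart.

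Hepatocytes make most plasma proteins, and these enter the ER through the SEC61 translocon. Chaperones such as HSPA5 and disulfide isomerases fold them there, and proteins that fail to fold are returned to the cytosol for degradation. When unfolded proteins build up, the sensors IRE1 (Ern1), PERK (Eif2ak3) and ATF6 raise the genes of folding and degradation through XBP1 and ATF6. PERK also slows translation and raises ATF4, which acts on amino acid and stress genes such as Ddit3, Trib3 and Asns.

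Values are RPKM (reads divided by transcript length and by sequencing depth). The depth recovered from the values was 11463337 to 19019091 reads per sample. Arntl had 15.7 to 16.4 RPKM in WT at CT0, 0.68 to 1.26 in WT at CT12, 5.73 to 7.45 in KO at CT0 and 3.59 to 4.37 in KO at CT12. Reads were summed along the transcript, so loss of the floxed exon cannot be read from these values. The 7 hepatocyte markers were present in every library. Their summed level was 27743 to 36336 RPKM in KO and 38726 to 51820 RPKM in WT, a difference carried by Alb (14012 to 21242 RPKM in KO and 26609 to 37868 RPKM in WT). The sum of the other 6 was 13516 to 15094 RPKM in KO and 11699 to 13952 RPKM in WT. The sum of 4 cholangiocyte markers was 27.0 to 64.1 RPKM in WT and 87.7 to 151 RPKM in KO. The sum of 4 neutrophil markers was 28.0 to 97.1 RPKM in WT and 90.4 to 192 RPKM in KO at CT0, and 5.13 to 7.59 RPKM in WT and 16.2 to 40.1 RPKM in KO at CT12. Of 9 pancreatic acinar markers, Pnlip, Ctrb1, Cpa1 and Cel were listed at 0 in all 12 libraries, and the sum of the 9 was 3.89 to 11.9 RPKM in WT and 14.1 to 22.3 RPKM in KO, mostly Cela1 (3.65 to 10.6 RPKM in WT and 13.9 to 21.6 RPKM in KO). In whole liver, fewer cells of a type and less RNA per cell cannot be told apart, and the part of cell composition in the differences below was not tested.

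Several of these genes carry an ER stress element in their promoter, to which ATF6 binds together with NF-Y, and its letters are shown to place the results on a known sequence. Promoters of 300 bases (250 before the start site and 50 from it) were taken from RefSeq on GRCm38.p6. They were given for 29 of the 34 genes. Atf6, Derl1, Hyou1, Sec61a1 and Manf had no match. Matches to the ER stress element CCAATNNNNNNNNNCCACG, searched on both strands, were found for 9 of the 29 genes and in 0.119% of the 32851 promoters. The second form, ATTGGNCCACG, was found for Herpud1 and Dnajb11 and in 0.0365% of promoters. The element was first described from genes of this kind, so the high share among them is a description. The matches are given below in the sense of the gene, with the fixed letters of the element in capitals, and a match beginning with CGTGG lies on the opposite strand.
Hspa5: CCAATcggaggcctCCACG
Hsp90b1: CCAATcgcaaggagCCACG
Hsp90b1, second match: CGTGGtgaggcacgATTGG
Calr: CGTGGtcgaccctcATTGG
Canx: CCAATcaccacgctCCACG
Creld2: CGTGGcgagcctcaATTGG
Dnajc3: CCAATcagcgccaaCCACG
Pdia6: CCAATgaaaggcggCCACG
Syvn1: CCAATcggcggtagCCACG
Derl3: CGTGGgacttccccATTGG
Herpud1: ATTGGgCCACG
Dnajb11: ATTGGcCCACG

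The 250 bases before the start site are shown for Herpud1, whose RNA rose between CT0 and CT12, for Calr, whose RNA fell, and for Creld2, which varied most between livers of 1 group. Capitals mark the element. In the Herpud1 promoter (chr8:94386179-94386428, plus strand) it spans bases -52 to -42 from the start site, in that of Calr (chr8:84846932-84847181, minus strand) bases -162 to -144, and in that of Creld2 (chr15:88819396-88819645, plus strand) bases -126 to -108.
Herpud1: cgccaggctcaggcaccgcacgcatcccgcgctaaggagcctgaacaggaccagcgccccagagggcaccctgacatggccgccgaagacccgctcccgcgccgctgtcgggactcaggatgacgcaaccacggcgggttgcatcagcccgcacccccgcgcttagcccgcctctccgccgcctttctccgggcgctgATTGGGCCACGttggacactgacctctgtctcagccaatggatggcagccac
Calr: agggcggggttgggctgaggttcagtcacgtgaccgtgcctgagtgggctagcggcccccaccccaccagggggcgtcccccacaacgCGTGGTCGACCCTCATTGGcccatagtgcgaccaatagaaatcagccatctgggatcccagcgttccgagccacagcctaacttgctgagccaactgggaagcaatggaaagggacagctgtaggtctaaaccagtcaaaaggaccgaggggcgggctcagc
Creld2: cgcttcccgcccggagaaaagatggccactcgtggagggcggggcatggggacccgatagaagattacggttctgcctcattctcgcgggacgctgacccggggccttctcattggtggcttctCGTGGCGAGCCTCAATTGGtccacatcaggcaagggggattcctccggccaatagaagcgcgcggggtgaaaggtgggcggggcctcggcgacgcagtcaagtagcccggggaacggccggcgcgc
The E-box CACGTG, to which BMAL1 and CLOCK can bind, was found for Calr, Derl3 and Dnajb9 among the 29 genes and in 7.15% of all promoters. The core TGACGTGG of the unfolded protein response element (0.676% of promoters) was found for none of the 29 genes in this window. Nor was the ATF4 element in the form TGATGNAAT (0.965%), which was searched with its last base fixed as T. Sites that end in another base were not searched, so the absence of ATF4 sites cannot be read from this.

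The genes covered a wide range of levels. By RPKM, which allows levels of different genes to be set side by side, 7 of the 34 had a mean of at least 100 over the 12 libraries, with Hsp90b1 (314), Hspa5 (296) and Calr (286) highest. The order of these depends on the row used. The Hsp90b1 row was 1119 bases long, and its 2825-base row had a mean of 273, below Hspa5 and Calr. The targets of the translational arm were low, and 4 genes had a mean under 2 RPKM. These were Trib3 (0.738), Derl3 (1.01), Sesn2 (1.16) and Chac1 (1.27). Trib3 rested on 6 to 66 reads per library and Derl3 on 8 to 55, against 8039 to 28972 for Hspa5. Trib3 and Derl3 passed the filter of a group mean of 1 RPKM through WT at CT0 alone, the group in which they were highest. A test of either gene that involves this group is therefore given as a description only.

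Between-liver spread was small for most genes except in 1 library. Replicate 1 of WT at CT0 was the highest of the 12 libraries for 21 of the 34 genes, a count that was not made over all genes tested. It was above the mean of replicates 2 and 3 for 29 of the 34 genes and for 4928 of the 10799 genes tested. Creld2, an ER protein released on stress, had 75.2 RPKM in this liver and 13.3 and 10.6 RPKM in the other livers of its group. Manf, a stress-induced secreted ER protein, had 205 RPKM there and 73.6 and 58.0 RPKM in the others. Hspa5, the main HSP70 chaperone of the ER, had 605 RPKM there and 230.4 and 208 RPKM in the others. The highest value in the other 11 libraries was 302 RPKM for Hspa5, 109 RPKM for Manf and 26.6 RPKM for Creld2.

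The rest of the chaperones followed the same liver to differing degrees. Hyou1, a nucleotide exchange factor for HSPA5, had 147 RPKM against 60.1 and 58.4 RPKM, and Hsp90b1, the ER form of HSP90, had 501 against 304 and 293 RPKM. In all, 11 of the 34 genes were at least 1.5 times higher in this liver than in both others of its group, a background of 2.19% of all genes tested. These were Hspa5, Hsp90b1, Hyou1, Dnajb9, Dnajb11, Sdf2l1, Manf, Creld2, Chac1, Sel1l and Syvn1. With a limit of 2 in place of 1.5 there were 4. Canx, Derl1 and Sec61b, which also serve the ER, were within 1.12 times of the mean of the other livers. Trib3 and Sesn2 lay at least 1.5 times below both others, where the background was 3.01% of genes tested. Trib3 had 0.548 RPKM against 1.45 and 1.93 RPKM, and Sesn2, a target of ATF4, had 0.685 against 1.17 and 1.53 RPKM.

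In the other 11 libraries 0 to 2 of the 34 genes were 1.5 times above both livers of the same group, where 1.17% to 4.56% of all genes tested were. The ratio of this liver to the mean of the others had a median of 1.31 over the 34 genes and of 0.982 over all genes tested, so the higher values were not shared by the whole library. Of the 138 tested genes in 7 wider lists of ER and stress genes, 7 were high in it by the same rule (Ero1lb, Srprb, Ostc, Wfs1, Sec23b, Sec24d and Preb). The share over all genes tested was 2.19%. Of the 9 high genes with a promoter, 5 had either form of the ER stress element, and of the 20 other genes 6 did. The neutrophil marker sum in this liver was 97.1 RPKM against 43.0 and 28.0 RPKM, and its part in these values was not tested. For the 34 genes, called differences and some of the others that use WT at CT0 are therefore given with and without this library. In the wider lists, named calls that use WT at CT0 were kept without it unless said otherwise.

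**Figure D1:**
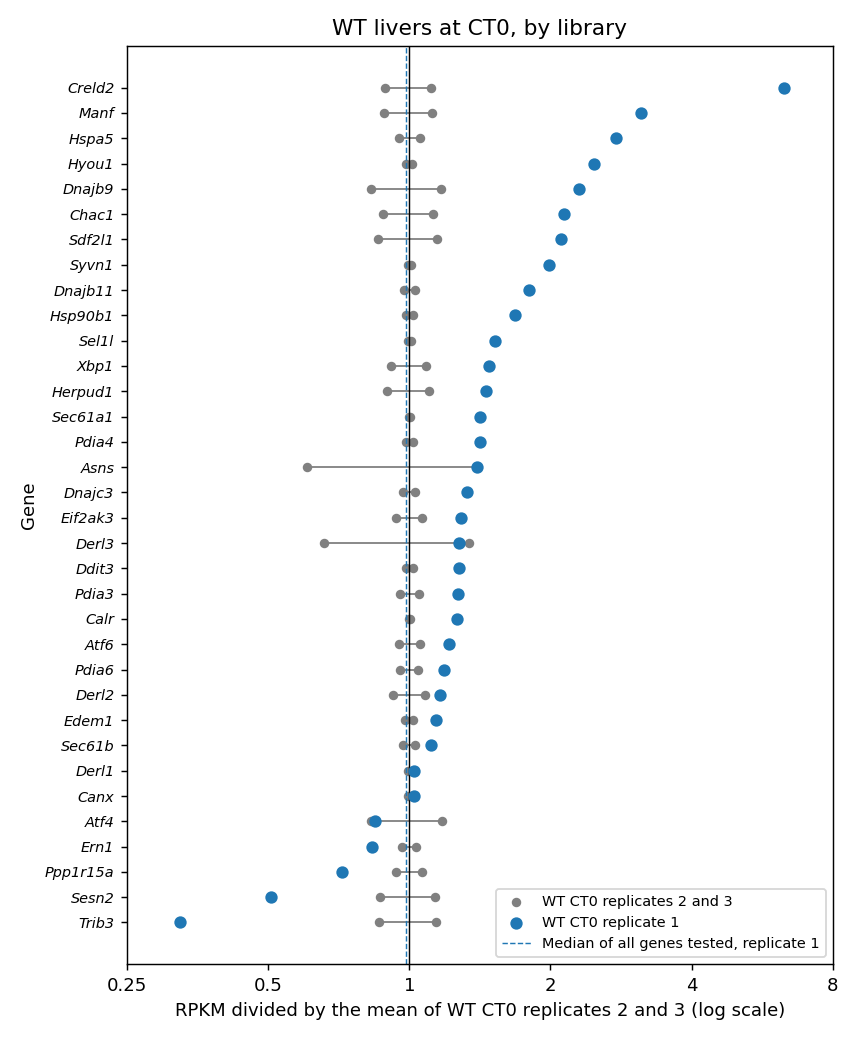
Ratio of each WT liver at CT0 to the mean of replicates 2 and 3 on a log axis, for the 34 genes. Blue points are replicate 1, grey points joined by a line are replicates 2 and 3, and the dashed line is the median of replicate 1 over all genes tested (0.982). Creld2, Manf, Hspa5 and Hyou1 lie farthest to the right, and Trib3 and Sesn2 farthest to the left.

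**Figure D2:**
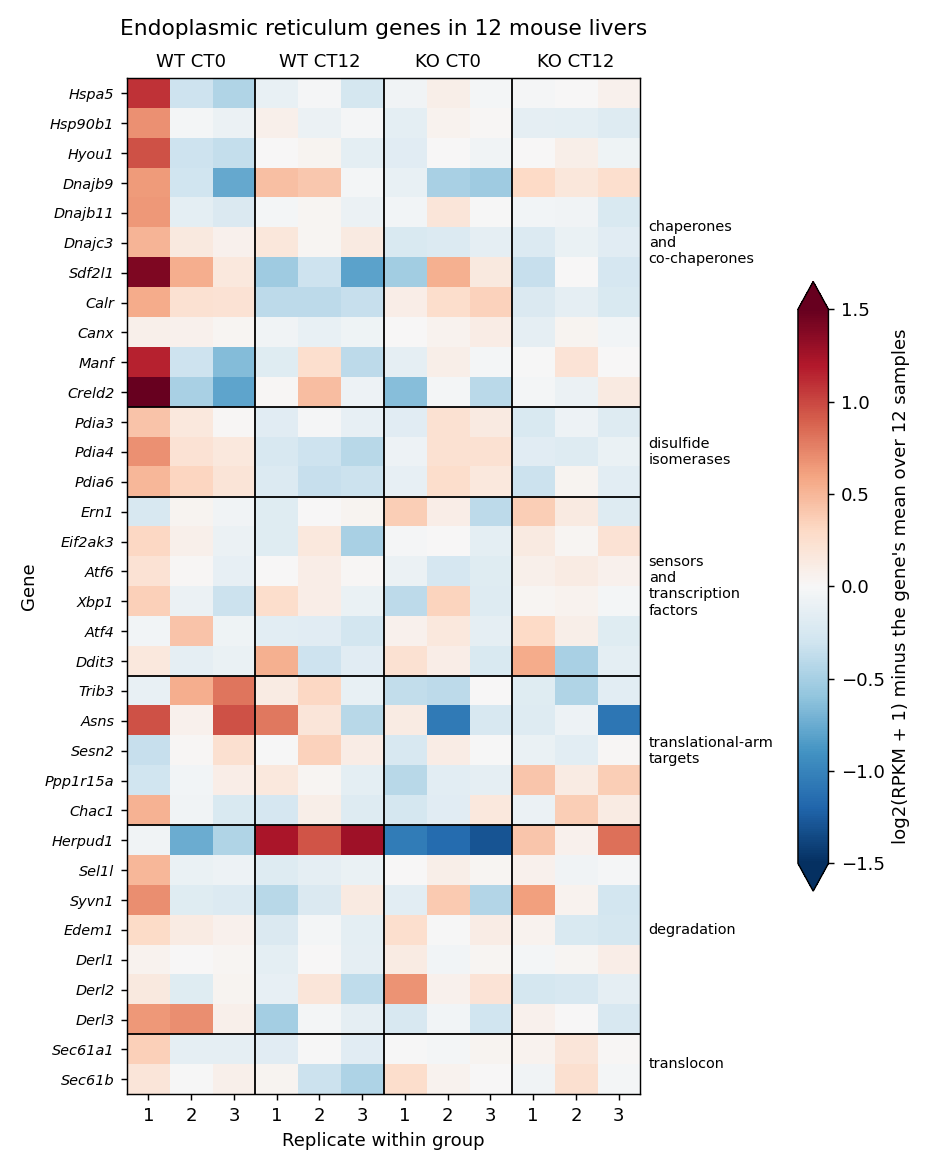
Level of the 34 genes in the 12 livers as log2(RPKM + 1) minus the mean of the gene over all livers, with genes ordered by role and the colour scale ending at 1.5 in either direction. The first column, WT CT0 replicate 1, is red for most chaperones and isomerases. Herpud1 is higher at CT12 than at CT0 in both genotypes, and Calr and Pdia4 are lower.

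The first comparison asked which of the genes differ between CT0 and CT12 in WT liver. Herpud1 rose, and Calr, Pdia4, Pdia6, Sdf2l1 and Derl3 fell. These 6 genes were called of 34 (limma, Benjamini-Hochberg adjusted p under 0.05), where 11.6% of all genes tested were called. Derl3 could enter the test only because it was high in WT at CT0, and with a filter of 1 RPKM in every sample the other 5 were called. The median log2 difference was -0.19 over the 34 genes and -0.07 over all genes tested. Other markers moved with time in the WT livers. The B and plasma cell sum was 19.1 to 22.4 RPKM at CT0 and 6.16 to 10.8 RPKM at CT12, the endothelial sum 78.2 to 100.7 and 55.8 to 65.7 RPKM, and the stellate sum 124 to 161 and 92.7 to 109 RPKM. Their part in the differences was not tested.

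Herpud1 encodes HERP, an ER membrane protein that brings substrates to the degradation machinery. It had 110.0, 67.9 and 83.4 RPKM in the WT livers at CT0 and 269, 222 and 277 RPKM at CT12. The ranges did not overlap. The difference was 1.57 on the log2(RPKM + 1) scale (SE 0.20, adjusted p = 0.00042), and 1.75 without WT CT0 replicate 1 (adjusted p = 0.00045). Both transcript rows of Herpud1 gave the same difference.

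The genes that fell included a lectin-type chaperone and a pair of isomerases. Calr, the calcium-binding chaperone calreticulin that holds glycoproteins, had 412, 326 and 325 RPKM at CT0 and 212, 212 and 219 RPKM at CT12. Its difference was -0.71 (SE 0.10, adjusted p = 0.00095). Pdia4 had 175, 126 and 122 RPKM at CT0 and 91.6, 87.0 and 81.1 RPKM at CT12 (-0.68, SE 0.13, adjusted p = 0.0073). Pdia6 had 139.6, 123 and 112 RPKM at CT0 and 84.7, 76.9 and 78.1 RPKM at CT12 (-0.64, SE 0.12, adjusted p = 0.0066). Each of these CT12 livers was below every CT0 liver for all 3 genes, a count that was not made over all genes tested. Without WT CT0 replicate 1 the differences were -0.60, -0.51 and -0.56 and still passed (adjusted p = 0.0028, 0.017 and 0.028). Pdia3, the third isomerase, differed by -0.30 and did not pass (adjusted p = 0.14).

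Sdf2l1 and Derl3 were less certain. Sdf2l1, a partner of HSPA5 and its J-domain helpers, had 33.3, 18.1 and 13.5 RPKM at CT0 and 8.00, 9.46 and 6.46 RPKM at CT12 (-1.25, SE 0.30, adjusted p = 0.022). Without WT CT0 replicate 1 it was -0.90 and did not pass (adjusted p = 0.063), nor did it without WT CT12 replicate 1 or 3 (adjusted p = 0.06 and 0.081). Derl3, a derlin of the degradation channel, had 2.06, 2.17 and 1.06 RPKM at CT0 and 0.371, 0.917 and 0.781 RPKM at CT12 (-0.70, SE 0.18, adjusted p = 0.031), a call that the filter favours as said above. It did not pass without WT CT0 replicate 1 (-0.61, adjusted p = 0.1) or 2 (adjusted p = 0.11), or without WT CT12 replicate 1 or 3 (adjusted p = 0.11 and 0.067). Nor did Derl3 pass with quantile normalization (-0.54, adjusted p = 0.09) or with only the 6 samples compared (adjusted p = 0.065). For both genes the ranges at the 2 times did not overlap, which was not counted over all genes tested.

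Without this library 6 genes were again called in WT, 4 of them in common with the 12-sample result, and 7.76% of all genes were called. Dnajb9, a J-domain protein that turns HSPA5 back onto IRE1, and Creld2 passed in place of Sdf2l1 and Derl3. Both were among the genes by which this library was set apart, so these new calls are a description only. Dnajb9 had 33.8, 17.2 and 12.2 RPKM at CT0 and 29.5, 28.7 and 20.9 RPKM at CT12, and its difference moved from 0.42 (adjusted p = 0.37) to 0.81 (adjusted p = 0.023). Creld2 had 19.2, 26.6 and 17.98 RPKM at CT12, and its difference moved from -0.09 (adjusted p = 0.94) to 0.77 (adjusted p = 0.038). The direction for Creld2 in WT thus turned on 1 liver. The same held for Hspa5, at -0.24 with it and 0.25 without it (adjusted p = 0.65 and 0.15), and for Hyou1, at -0.13 and 0.31 (adjusted p = 0.8 and 0.071). The median over the 34 genes was -0.03 without it.

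In KO liver, Herpud1 and Calr were called between the 2 times, 2 of 34 genes against 2.43% of all genes tested. Herpud1 had 54.8, 50.9 and 46.2 RPKM at CT0 and 153, 119 and 204 RPKM at CT12. All 3 CT12 livers were above the CT0 livers, with a difference of 1.60 (SE 0.20, adjusted p = 0.003). Calr had 299.9, 336 and 355 RPKM at CT0 and 240.1, 254 and 238 RPKM at CT12, again without overlap (-0.43, SE 0.10, adjusted p = 0.049). The Calr call in KO lay at the threshold and was lost under 16 of 19 alternatives, over which its adjusted p ran from 0.026 to 0.15. When single livers were left out it was kept without WT CT0 replicate 1 and without KO CT0 replicate 1, and lost without any other. Ppp1r15a, the phosphatase subunit that reverses the translational stop, was the closest of the rest, with 1.61 to 2.17 RPKM at CT0 and 2.78 to 3.66 RPKM at CT12 (0.54, adjusted p = 0.065).

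Pdia4, Pdia6 and Sdf2l1 had smaller differences in KO than in WT. Pdia4 had 102, 128 and 127 RPKM at CT0 and 96.0, 94.4 and 101 RPKM at CT12 in KO (-0.29, adjusted p = 0.26), and Pdia6 had 90.3, 118 and 109.5 RPKM at CT0 and 78.5, 101 and 88.2 RPKM at CT12 (-0.25, adjusted p = 0.29). Sdf2l1 had 8.05, 17.8 and 13.4 RPKM and then 9.26, 12.1 and 9.91 RPKM (-0.25, adjusted p = 0.7). The dependence of the time difference on genotype was tested as an interaction. By limma none of the 34 genes passed at an adjusted p under 0.05, where 1.49% of all genes tested did. At an unadjusted p under 0.05 there were 4 (11.8%, against 12.3% of all genes tested), namely Derl3 (0.84, adjusted p = 0.18), Sdf2l1 (1.004, adjusted p = 0.36), Ppp1r15a (0.45, adjusted p = 0.38) and Pdia6 (0.39, adjusted p = 0.39). Without WT CT0 replicate 1 these were 0.75, 0.66, 0.55 and 0.31 (adjusted p = 0.31, 0.53, 0.28 and 0.55). Derl3 entered the test only through WT at CT0, so its part in this count is a description. The interaction of Herpud1 was 0.03 with a 95% interval of -0.58 to 0.64, and -0.15 without that library (adjusted p = 0.88). A different rise of Herpud1 in the KO livers was therefore not detected, and the interval with all libraries allows a difference of that size in either direction.

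**Figure D3:**
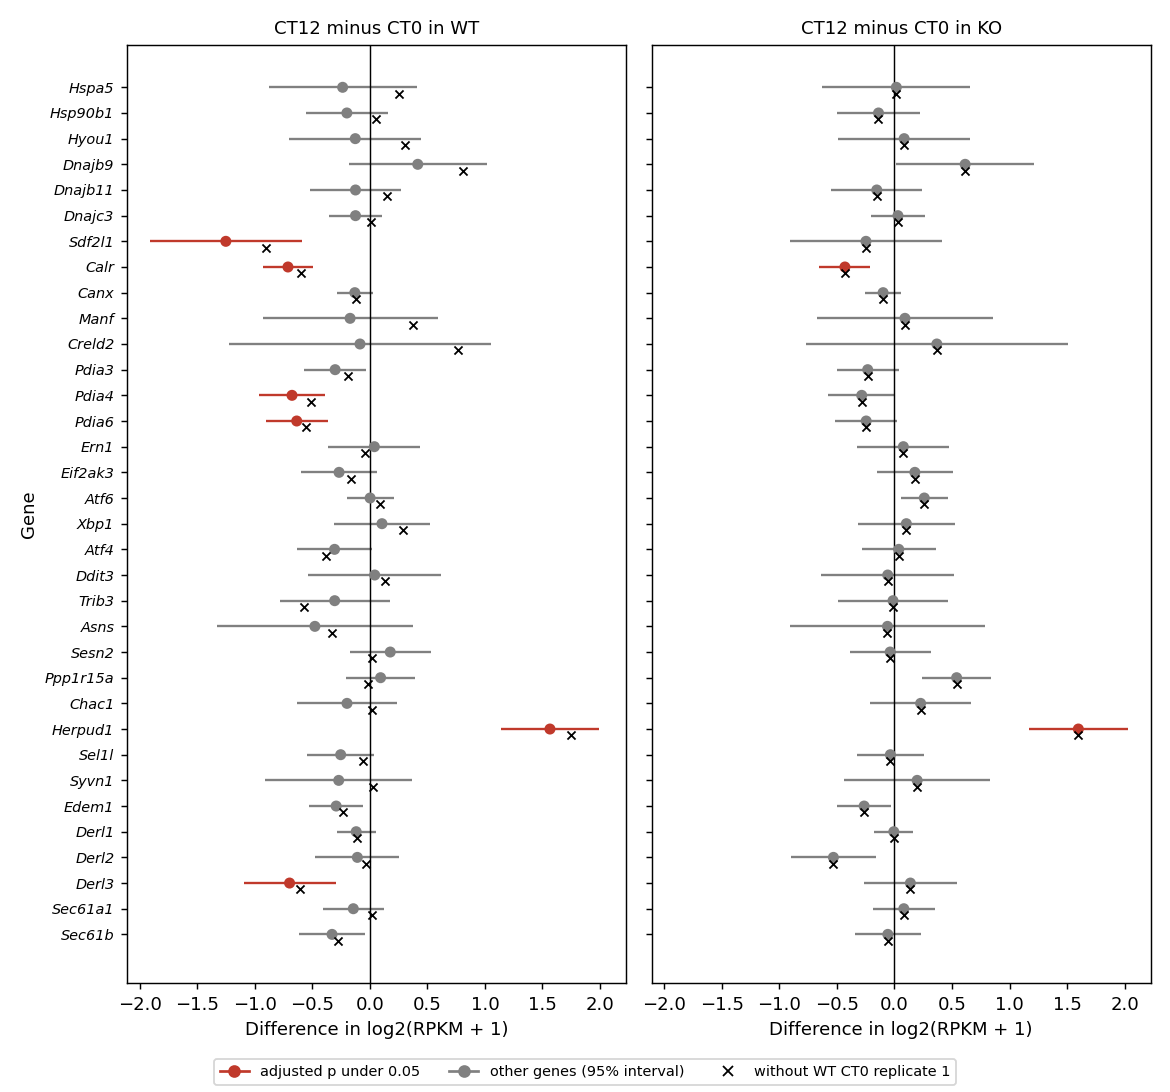
Difference between CT12 and CT0 in log2(RPKM + 1) for the 34 genes in WT (left) and KO (right). Points are estimates with 95% intervals (red where the adjusted p was under 0.05), and crosses are the estimates without WT CT0 replicate 1. Herpud1 lies at 1.57 in WT and 1.60 in KO, and the crosses for Creld2 and Hspa5 in WT fall on the other side of 0 from the points.

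Loss of Bmal1 was then compared with WT at each time. At CT12, Herpud1 was lower in KO and was the 1 gene called of 34, while 10.5% of all genes tested were called. KO livers had 153, 119 and 204 RPKM against 269, 222 and 277 RPKM in WT, without overlap (-0.71, SE 0.20, adjusted p = 0.038). The call was lost under 8 of 19 alternatives, and the difference ran from -0.91 to -0.53 over them. It was lost without WT CT0 replicate 3, WT CT12 replicate 1 or 3, KO CT0 replicate 2 or KO CT12 replicate 1 or 2, and was smallest without the last of these, the lowest liver of its group (-0.53, adjusted p = 0.14). Without WT CT0 replicate 1 the adjusted p was 0.026, and Dnajc3 passed as well (-0.27, adjusted p = 0.044). Without WT CT12 replicate 1, Sec61b passed (0.44, adjusted p = 0.048). The 34 genes had a median of 0.08 and all genes tested also one of 0.08. The 95% interval lay within 1 of 0 on the log2 scale for 30 of the 34 genes and within 0.5 for 13.

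At CT0 limma called none of the 34 genes, where 1.86% of all genes tested were called. At an unadjusted p under 0.05 there were 6 (17.6%, against 14.2% of all genes tested). These included Derl3 and Trib3, which entered the test only through WT at CT0, so the count is a description. Dnajc3 (-0.43, adjusted p = 0.072), Herpud1 (-0.75, adjusted p = 0.087) and Derl3 (-0.67, adjusted p = 0.099) came closest. For these 3 every KO liver was below every WT liver, a count that was not made over all genes tested. The others were Trib3 (-0.66, adjusted p = 0.17), Asns (-1.05, adjusted p = 0.23) and Atf6 (-0.21, adjusted p = 0.34). Without WT CT0 replicate 1 the differences were -0.29 for Dnajc3, -0.57 for Herpud1, -0.58 for Derl3, -0.91 for Asns and -0.12 for Atf6 (adjusted p = 0.14, 0.22, 0.23, 0.41 and 0.61). Trib3 then passed (-0.93, adjusted p = 0.038), and Derl3 passed without WT CT0 replicate 3 (-0.87, adjusted p = 0.041). Both entered the test through WT at CT0, so neither of these calls counts as support for a difference. The median of the 34 genes moved from -0.14 to 0.02 on leaving out replicate 1, against 0.01 and 0.01 for all genes. With that library 5 of the 34 differences were above 0, and the sign of the median at CT0 turned on 1 WT liver.

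The difference between genotypes over both times was compared after the values at each time had been seen. Herpud1 and Dnajc3 were lower in KO, 2 of 34 genes against 11.5% of all genes tested. For Herpud1 the difference was -0.73 (SE 0.14, adjusted p = 0.0051). Dnajc3, also known as p58IPK, is a J-domain co-chaperone of HSPA5 that has also been described as an inhibitor of PERK. Dnajc3 had 64.5, 49.9 and 47.2 RPKM in WT and 38.5, 39.0 and 41.0 RPKM in KO at CT0, and 51.1, 46.0 and 49.6 RPKM in WT and 38.9, 42.1 and 39.96 RPKM in KO at CT12. Every KO liver was below every WT liver at both times, and the mean difference was -0.35 (SE 0.08, adjusted p = 0.011). Both calls were kept under all 18 alternatives run for them, with an adjusted p of 0.016 or less for Herpud1 and of 0.028 or less for Dnajc3. Without WT CT0 replicate 1 the differences were -0.64 for Herpud1 and -0.28 for Dnajc3 (adjusted p = 0.011 and 0.0095).

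Without WT CT0 replicate 1, Trib3 and Hspa5 joined them, so that 4 of 34 genes were called against 10.5% of all genes. Trib3, a pseudokinase and target of ATF4 and DDIT3, had 0.548, 1.45 and 1.93 RPKM in WT and 0.298, 0.277 and 0.689 RPKM in KO at CT0, and 0.826, 1.08 and 0.552 RPKM in WT and 0.479, 0.224 and 0.506 RPKM in KO at CT12. Its difference was -0.52 (adjusted p = 0.052) with that library and -0.65 (adjusted p = 0.0073) without it, and it passed without KO CT0 replicate 3 (-0.58, adjusted p = 0.046). Trib3 was tested only because it was high in WT at CT0, so these values are a description. The log2(RPKM + 1) scale understates differences at such low levels. Hspa5 moved from 0.02 (adjusted p = 0.96) to 0.27 (adjusted p = 0.027). WT CT0 replicate 1 was set apart by genes that included Hspa5, so this call is a description only. Hspa5 had 275, 302 and 280.5 RPKM in KO at CT0, 265, 282 and 236 RPKM in WT at CT12 and 282, 287 and 298 RPKM in KO at CT12, so its KO livers lay within a narrow range. The cholangiocyte and acinar sums were higher and Alb was lower in KO at both times, as given above, while the other hepatocyte markers together were not lower. Their part in these differences was not tested.

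**Figure D4:**
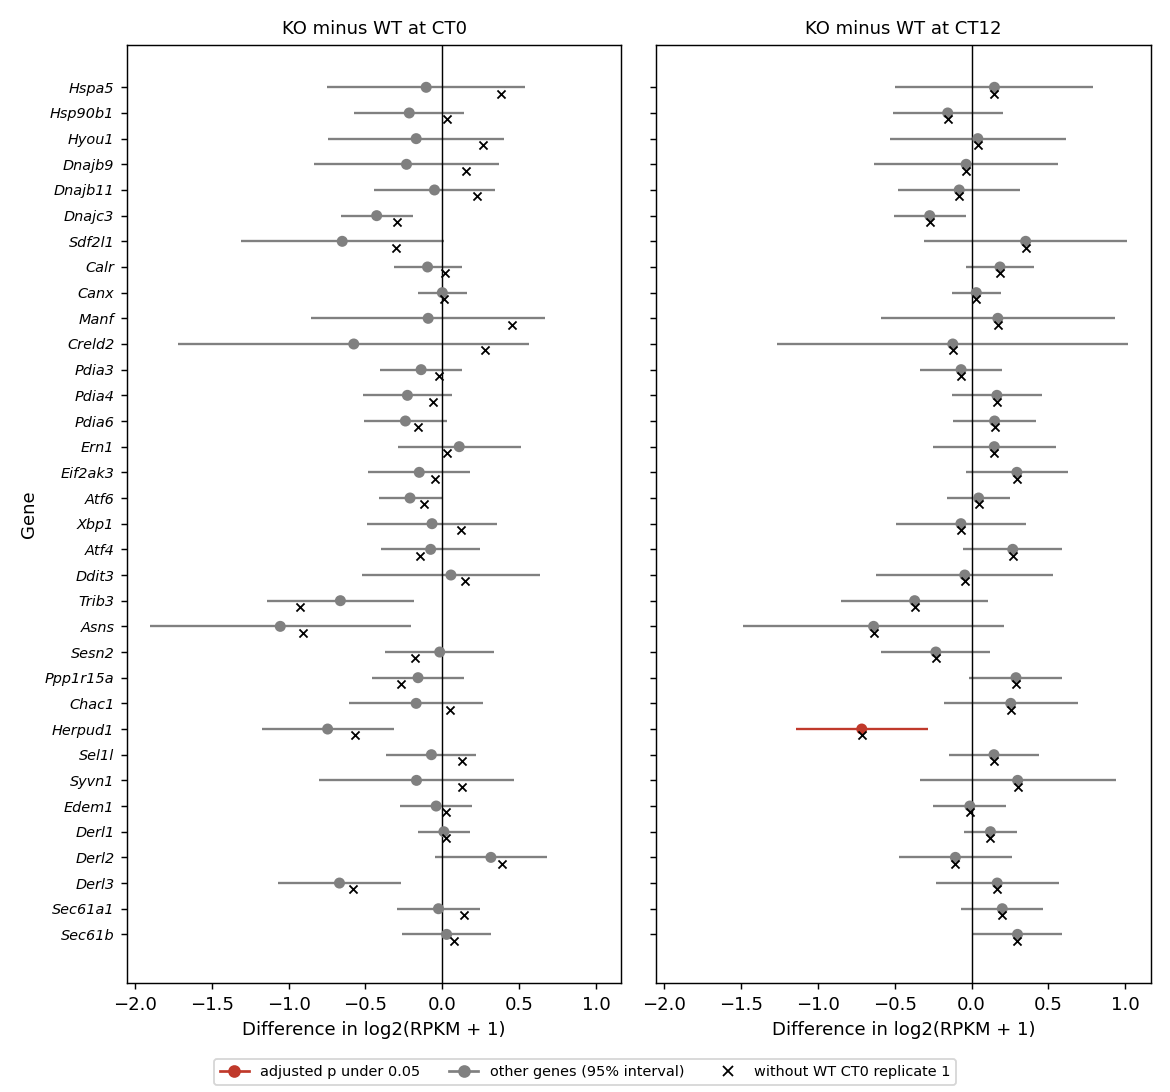
Difference between KO and WT in log2(RPKM + 1) for the 34 genes at CT0 (left) and CT12 (right), with 95% intervals, red where the adjusted p was under 0.05, and crosses for the estimates without WT CT0 replicate 1. Herpud1 at CT12 (-0.71) is the red point, and at CT0 most crosses lie to the right of their points.

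**Figure D5:**
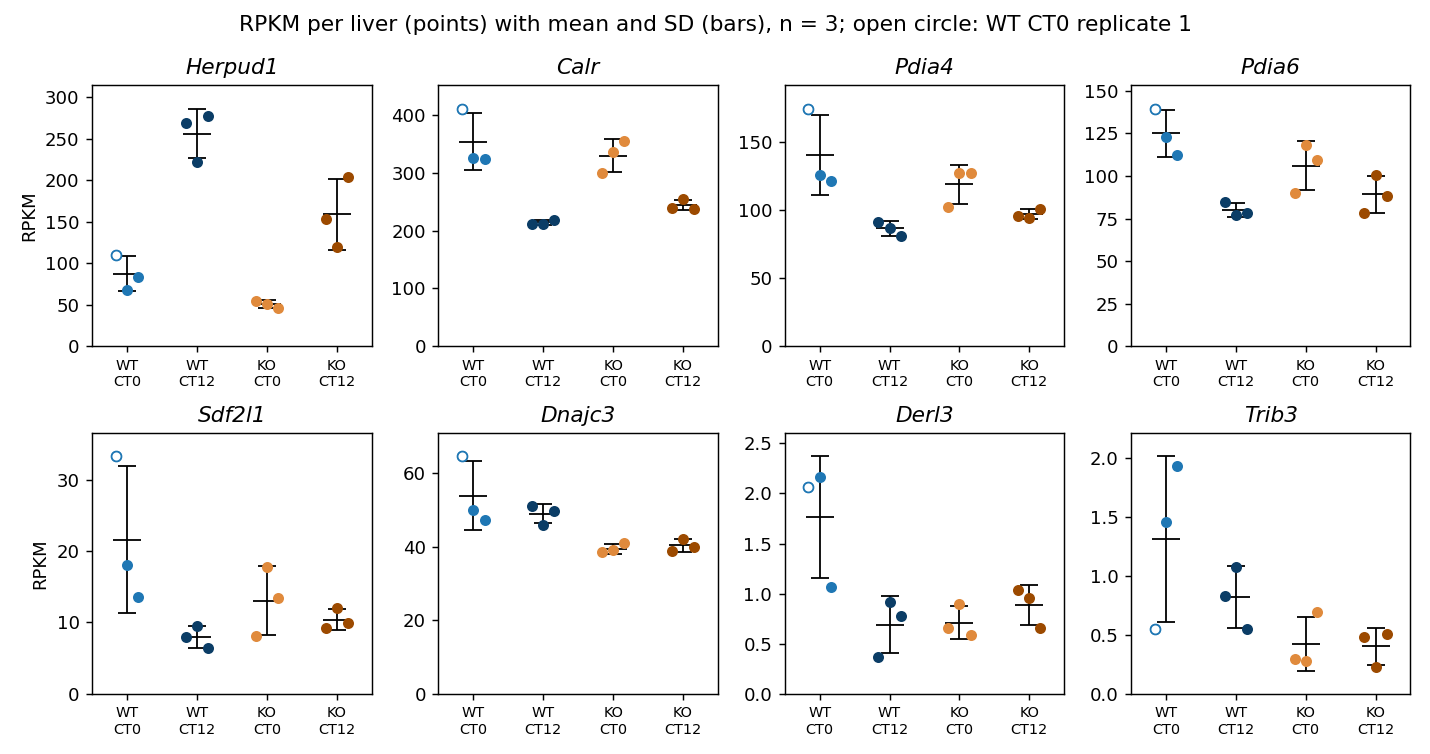
RPKM of 8 genes in each liver, with the mean and SD of each group (n = 3) and WT CT0 replicate 1 as an open circle, on axes that start at 0. Herpud1 is higher at CT12 than at CT0 and lower in KO than in WT, Calr, Pdia4 and Pdia6 are lowest in WT at CT12, and the KO livers of Dnajc3 lie at 38.5 to 42.1 RPKM.

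By limma none of the 3 sensors and of the factors they act through was called in any of the 6 comparisons. Atf6 was the one with an unadjusted p under 0.05, between genotypes at CT0 and between the times in KO (0.26, adjusted p = 0.16). Of all genes tested, 14.2% had such a p between genotypes at CT0 and 19.9% between the times in KO. For Ern1 the lowest group mean was 9.29 ± 1.01 RPKM in WT livers at CT0 and the highest 10.8 ± 2.24 RPKM in KO livers at CT12 (SD, n = 3 each). For Eif2ak3 the lowest group mean was 4.10 ± 1.13 RPKM in WT livers at CT12 and the highest 5.16 ± 0.39 RPKM in KO livers at CT12 (SD, n = 3 each). Atf6 had 11.8 ± 0.741 RPKM (SD, n = 3) in KO livers at CT0 and 13.8 to 14.3 RPKM in the other groups. No difference of Ern1 or Eif2ak3 passed. For Eif2ak3 in KO the livers at CT0 (4.08 to 4.67 RPKM) and at CT12 (4.75 to 5.53 RPKM) did not overlap (0.18, adjusted p = 0.55). The difference of Atf6 between genotypes at CT0 (-0.21) did not pass after adjustment (adjusted p = 0.34).

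Xbp1, the factor spliced by IRE1, had group means of 75.5 to 83.6 RPKM, and single livers from 59.2 to 100.5 RPKM. The row used is an 897-base processed transcript, and these values do not separate spliced from unspliced Xbp1. Atf4 had 29.9 ± 1.33 RPKM (SD, n = 3) in WT at CT12 and 35.5 to 37.8 RPKM in the other groups (KO against WT at CT12, 0.27, adjusted p = 0.29). Ddit3, the pro-apoptotic factor CHOP, had 2.39 to 6.01 RPKM over the 12 livers and group means of 3.70 to 3.99 RPKM. ATF4 and the sensors are controlled largely at the level of protein, which RNA does not show.

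Of the 5 targets of the translational arm, none was called with all 12 libraries by limma in any comparison. Trib3, Asns and Ppp1r15a had an unadjusted p under 0.05 in at least 1. In single comparisons 12.3% to 26.9% of all genes tested had such a p. The share with it in at least 1 comparison was not counted, so these genes are named as a description. Trib3 had it only in comparisons that use WT at CT0, the group through which alone it passed the filter. Asns, the asparagine synthetase, had 1.87 to 4.32 RPKM in WT and 0.316 to 1.98 RPKM in KO at CT0, and the groups overlapped in 1 liver (-0.85 over both times, SE 0.28, adjusted p = 0.072). The difference passed without WT CT0 replicate 2, WT CT12 replicate 3 or KO CT0 replicate 1 and with the replicate block (adjusted p = 0.048, 0.044, 0.049 and 0.048). It did not pass under the other alternatives run for it, and without WT CT0 replicate 1 it was -0.77 (adjusted p = 0.14). The highest library of Asns was 14.8 times its lowest, the widest range of the 34 genes. Chac1, Sesn2 and Ppp1r15a stayed between 0.685 and 3.66 RPKM in all livers. Among the degradation genes, Sel1l, Syvn1, Edem1, Derl1 and Derl2 were not called, and Derl1 was among the steadiest of the 34, with 29.2 to 35.4 RPKM. The translocon subunits Sec61a1 and Sec61b had 53.6 to 77.8 RPKM and 48.4 to 80.7 RPKM and were not called with all 12 libraries, although Sec61b passed between the times in WT without WT CT12 replicate 1 (-0.47, adjusted p = 0.041). Canx, the membrane-bound partner of calreticulin, had 125 to 148 RPKM, the narrowest range of all (1.19 times), while Calr fell with time.

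The surrounding pathway was given by 7 lists of 151 further ER and stress genes, of which 138 were tested. At CT12, 13 were higher and 1 lower in KO (10.1% of the 138, against the 10.5% of all genes tested given above), with a median of 0.12. In the list named oxidative folding, which also holds other folding genes, these were Qsox1 (0.71, adjusted p = 0.0046), Erp29 (0.50, adjusted p = 0.033) and Sil1 (0.46, adjusted p = 0.0046). For translocation it was Spcs2 of the signal peptidase (0.64, adjusted p = 0.024). In N-glycosylation they were Tusc3 (0.59), Uggt2 (0.58), Rpn2 (0.41) and Prkcsh (0.30). Surf4, a cargo receptor, was the one of vesicle export (0.42), and Rnf5, a ubiquitin ligase, was the one that was lower (-0.44). In the wider ATF4 programme Atf5 (1.63, adjusted p = 0.00013), Ddit4 (1.12, adjusted p = 0.03), Tars (0.74, adjusted p = 0.002) and Cars (0.72, adjusted p = 0.011) were higher. Among the members of the same arm, Atf4 itself (0.27), Trib3 (-0.37) and Asns (-0.64) did not pass at that time. At CT0 none of the 138 was called by limma, where 1.86% of all genes were, and 11 had an unadjusted p under 0.05 (7.97%, against 14.2% of all genes tested).

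Between CT0 and CT12 in WT, 2 of the 138 rose and 7 fell (6.52%, against the 11.6% of all genes tested). Atf5 (-1.58, adjusted p = 0.00021), Tars (-1.01, adjusted p = 0.00029) and Gdf15 (-0.81, adjusted p = 0.031) fell, together with Mcfd2, Ddost and Rpn2 of glycoprotein handling and Ppib, a prolyl isomerase (-0.43, adjusted p = 0.012). Gdf15 passed the filter through WT at CT0 alone (mean 1.43 RPKM), the group in which it was highest. Its call is therefore a description only. Cebpb (0.96, adjusted p = 0.0087) and Ppp1r15b (0.44, adjusted p = 0.041) rose. The calls of Mcfd2, Ddost, Rpn2 and Ppp1r15b were lost without WT CT0 replicate 1 (adjusted p = 0.092, 0.069, 0.077 and 0.11). In KO, Cars rose (0.69, adjusted p = 0.044) and Tars (-0.52, adjusted p = 0.047) and Tmx2 (-0.42, adjusted p = 0.049) fell, and none of these 3 passed without that library. Over both times 9 of the 138 were higher and 2 lower in KO (7.97%, against the 11.5% of all genes tested), among them Sil1 (0.37, adjusted p = 0.0018) and Tusc3 (0.51, adjusted p = 0.00093), and Pdia5, a further disulfide isomerase, was lower (-0.52, adjusted p = 0.022).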

How the data were processed

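Liver RNA of 12 mice was sequenced after TruSeq library preparation. The authors deposited 1 table of RPKM values per sample for 46585 transcript rows, each with a gene symbol. The submitters' processing notes name TopHat2, bedtools 2.19.1 and mm9, while the annotation release and the strand setting are not given in the sources used here. Lengths from GENCODE vM1 (NCBIM37, 95.5% of rows) gave the depth from the steps of low values, of which at least 95.7% were whole reads within 0.05. How reads shared by transcripts of 1 gene were counted is not stated. Groups and replicate numbers came from the sample titles, which give 3 mice per genotype and time where the treatment protocol in the labels gives 2, and the labels do not say whether the mice of a group shared a litter or day.

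For each symbol the row with the highest mean was kept, and genes whose mean reached 1 RPKM in any of 4 groups were tested. The model of 4 group means was fitted to log2(RPKM + 1) of 12 samples with lmFit, contrasts.fit and eBayes (trend) of limma 3.58.1, run under R 4.3.3, and p-values were adjusted by Benjamini-Hochberg over 10799 genes at a threshold of 0.05. The step for depth and the fit were tested on simulated data. The alternatives were a pseudocount of 0.1, other filters, quantile normalization, summed rows, the replicate block, a fit of the 6 samples compared and omission of each sample. The comparison over both times and the limit of 2 for single libraries were added after seeing the data. The members and lists were chosen with earlier results of these data known. Full values were to be given for called members and for Hspa5, Xbp1, Atf4, Ddit3, Ern1, Eif2ak3 and Atf6, with at most 4 called genes per wider list and comparison. Values of other members were chosen after they were seen. Figures were drawn with matplotlib 3.10.9.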

Additional observations from a re-analysis of the deposited data

Results flagged for a closer look

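The genotype effect differed between CT0 and CT12 for 2 genes of the wider ATF4 programme, tested as an interaction in limma. These 2 of 138 genes are 1.45%, against 1.49% of all genes tested. Atf5, a factor related to ATF4, had 45.2, 40 and 55.0 RPKM in WT at CT0, 12.5, 15.3 and 16.9 RPKM in WT at CT12, 59.7, 37.0 and 39.9 RPKM in KO at CT0 and 53.9, 48.3 and 42.0 RPKM in KO at CT12. Its interaction was 1.69 (SE 0.26, adjusted p = 0.0071), and without WT CT0 replicate 1 the adjusted p was 0.018. The low level was found in the WT livers at CT12. Cars, a cysteinyl-tRNA synthetase, had an interaction of 1.14 (adjusted p = 0.026), with 12.8 to 13.7 RPKM in WT at CT0, 7.71 to 10.4 RPKM in WT at CT12, 8.07 to 12.8 RPKM in KO at CT0 and 14.7 to 17.9 RPKM in KO at CT12. It did not pass without WT CT0 replicate 1 (adjusted p = 0.063). None of the 34 listed genes had such an interaction. No group has more than 3 livers, so no test for a single outlying liver was made.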

How the results depend on the processing

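Of 206 values of 11 called differences under the alternatives, 173 kept their direction and their side of the threshold, 33 kept the direction and no longer passed, and none changed direction. With all 12 libraries 1 gene was called in KO against WT at CT12, and 0 without the filter, 0 with only the 6 samples compared, and 0 to 2 on leaving out 1 sample. The call of Herpud1 was lost without WT CT0 replicate 3, WT CT12 replicate 1 (adjusted p = 0.11, where Sec61b passed instead), WT CT12 replicate 3, KO CT0 replicate 2, KO CT12 replicate 1 or KO CT12 replicate 2. At CT0 leaving out 1 sample gave 0 to 1 called genes. In KO between the times, 2 became 1 with a pseudocount of 0.1, no filter, quantile normalization, summed rows and only the 6 samples compared, each time by loss of Calr, and 1 to 2 on leaving out 1 sample. Over both times, leaving out 1 sample gave 2 to 4, and quantile normalization added Trib3 (adjusted p = 0.042). The limit of 2 in place of 1.5 gave 4 genes high in WT CT0 replicate 1 in place of 11. Samples with the same replicate number did not deviate together (mean r = 0.008 over 18 pairs, against -0.004 for different numbers), and 5 of 12 samples correlated best with their own number, so the numbers were not taken as pairs. The replicate block gave 1 gene in KO between the times and 3 over both times, where Asns joined, and changed no other count of called genes. Quantile normalization moved the median of all genes by under 0.1. Depth limits the low genes most, such as Trib3 with 6 to 66 reads and Derl3 with 8 to 55.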
